A study of Rattus norvegicus with 6 samples.

Results

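The p53 target genes described here are Cdkn1a, Mdm2, Gadd45a, Bax, Bbc3, Ccng1, Sesn1, Zmat3 and Phlda3, a set of 9 well-known genes switched on by the transcription factor p53, taken from the count table by their gene names. Of these, 8 are among the 21648 genes of the table, and Bbc3, which encodes the cell death activator PUMA, was not analysed here. The samples were neonatal rat ventricular myocytes, heart muscle cells of wild-type pups at postnatal day 3, kept as primary cultures. The treated cultures received 10 µM of compound 915 for 72 h. The submitters class 915 among agonists of the ERRs, the estrogen-related nuclear receptors that drive genes of energy metabolism. The control cultures received the solvent DMSO for the same time, and each group gave 3 RNA sequencing libraries. Cells of both groups had been plated in medium with 10% serum and 100 µM bromodeoxyuridine, a thymidine analogue that enters the DNA of dividing cells and limits their growth, after 90 min of pre-plating to remove fibroblasts, and were then moved to serum-free medium with insulin, transferrin and selenium. Biological replicates are named in the labels, but no separate litters or cell isolations, so each p-value rests on the spread between libraries that may differ only technically. A second ERR agonist of the study, compound 332, was not analysed here.

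p53 is kept scarce by MDM2, a ubiquitin ligase that marks it for destruction, and accumulates when DNA damage or other stress breaks this hold. It then binds a recognition element made of a pair of similar half-sites and raises genes that stop the cell cycle, repair DNA, restrain growth signalling or trigger cell death. MDM2 is itself such a gene, which closes a feedback loop, and in heart muscle p53 and MDM2 are known for their roles in myocyte survival and in the response to overload.

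Matches to the recognition element are shown first because p53 is known to bind such elements in genes that it switches on. Binding of p53 to the matches was not measured. Promoter windows of RefSeq on the rat assembly GRCr8, from 250 bases before to 50 bases after the annotated start, were matched by symbol for 6 of the 8 genes, Cdkn1a, Mdm2, Gadd45a, Ccng1, Sesn1 and Phlda3. They were searched for the p53 half-site consensus, a motif of 10 bases that reads the same on both strands. The windows of Cdkn1a, Gadd45a, Ccng1 and Sesn1 each held 1 match, 4 of 6 windows, whereas 7.98% of all 33469 promoter windows held one. In Cdkn1a and Ccng1 the half-site stood beside a second one, so that 20 bases in a row were at most 1 base off the double consensus, which was the case in 24 of all windows (0.0717%). Of 33 windows of a wider list of known p53 target genes, described further on, 4 held a half-site (12.1%) and 0 a double site. The genes of both sets were listed because p53 is known to act on them, so the matches describe the set and were not tested. The complete windows of these genes follow, Cdkn1a at chr20:7150682-7150981 on the plus strand and Ccng1 at chr10:25684827-25685126 on the minus strand, with the 20-base double site in capitals.
Cdkn1a: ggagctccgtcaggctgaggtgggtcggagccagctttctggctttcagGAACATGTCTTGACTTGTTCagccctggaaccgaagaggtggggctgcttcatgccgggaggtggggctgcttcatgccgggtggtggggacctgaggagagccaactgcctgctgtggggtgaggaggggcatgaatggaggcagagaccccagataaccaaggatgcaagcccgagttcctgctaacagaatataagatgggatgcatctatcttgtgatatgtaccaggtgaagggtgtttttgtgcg
Ccng1: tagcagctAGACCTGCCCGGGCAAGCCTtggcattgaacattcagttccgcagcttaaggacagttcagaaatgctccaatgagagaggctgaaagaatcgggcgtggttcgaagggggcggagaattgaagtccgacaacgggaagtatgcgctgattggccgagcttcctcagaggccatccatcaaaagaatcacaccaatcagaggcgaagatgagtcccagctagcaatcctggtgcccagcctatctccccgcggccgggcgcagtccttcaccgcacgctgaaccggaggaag

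The double site began 201 bases upstream of the annotated start in Cdkn1a and 242 bases upstream in Ccng1. The single half-sites of Gadd45a and Sesn1, each only a part of the element, began 48 and 172 bases upstream. They are shown in capitals within 40 bases of their surroundings, at chr4:97486823-97486862 on the minus strand for Gadd45a and at chr20:46948532-46948571 on the plus strand for Sesn1.
Gadd45a: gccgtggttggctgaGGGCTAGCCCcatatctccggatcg
Sesn1: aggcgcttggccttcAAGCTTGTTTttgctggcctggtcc

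The windows of Mdm2 and Phlda3 held no half-site match, which says only that these letters are not in those 300 bases; the known p53 elements of mouse and human Mdm2 lie in its first intron, outside such a window. The extended half-site of the ERRs, searched as TNAAGGTCA on both strands, was in 0 of the 6 windows and in 1.2% of all windows.

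With 915, the p53 target genes moved by small amounts and in both directions. Cdkn1a, Ccng1, Gadd45a and Mdm2 rose by 1.2-fold to 1.27-fold, Zmat3 and Phlda3 fell by 1.18-fold and 1.22-fold, and Bax and Sesn1 did not pass the test. The test was edgeR's quasi-likelihood test over the 14253 genes that passed a filter on low counts, with a threshold of 0.05 on the Benjamini-Hochberg adjusted p, and all 8 genes passed the filter. Of the 8 genes, 6 (75%) were called, against 49.8% of all tested genes, 4 of them higher (24.3% of all tested genes) and 2 lower (25.5%). The same 6 genes had groups that did not overlap in CPM, that is in counts scaled to a common library total by the authors, against 56.7% of all tested genes. The fold changes come from a fit with another scaling, TMM, and so differ from ratios of mean CPM. Fitted on the authors' totals alone, the log2 fold change was 0.22 in place of 0.26 for Cdkn1a and −0.34 in place of −0.29 for Phlda3. The median log2 fold change of the 8 genes was 0.20, against −0.01 over all tested genes, and the median size of change regardless of direction was 0.26, against 0.27.

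Many markers of the cell types in these cultures moved in the same libraries, where 24.3% of all tested genes were higher and 25.5% lower. All 11 matched markers of cardiac myocytes were higher, and their summed level was 31591 to 32209 CPM with 915 against 21924 to 23148 CPM with DMSO. Of 13 fibroblast markers 10 were lower and 2 higher, with sums of 13751 to 14568 CPM with 915 and 25915 to 27022 CPM with DMSO. Most of these sums came from collagen genes, with means of 6289 CPM with 915 and 11988 CPM with DMSO for Col1a1. The same means were 2826 and 7067 CPM for Col3a1, and 2429 and 4427 CPM for Col1a2. The 2 higher markers were Dcn and Pdgfra, and Postn did not pass. Of the smooth muscle and pericyte list, 5 of 6 markers fell and 0 rose (738 to 790 CPM with 915, 1770 to 1909 CPM with DMSO), of the endothelial list 4 of 10 fell and 1 rose (50% called, near the 49.8% of all tested genes; 248 to 264 CPM with 915, 287 to 308 CPM with DMSO), and of the macrophage and leukocyte list 8 of 13 fell and 0 rose (140 to 169 CPM with 915, 273 to 306 CPM with DMSO). The largest part of the smooth muscle and pericyte sums came from Tagln (means of 362 CPM with 915 and 1209 CPM with DMSO). The same means were 52.1 and 137 CPM for Mylk and 27.9 and 84.1 CPM for Cnn1. They were closer for Pdgfrb (229 and 280 CPM) and Cspg4 (90.2 and 110 CPM), and Rgs5 did not pass. Most of the endothelial sum came from Eng, which did not pass (means of 189 CPM with 915 and 214 CPM with DMSO). No matched marker was at 0 in any library. In such bulk libraries fewer cells of a type and less RNA per cell cannot be told apart, and the part of the cell types in the changes of the p53 target genes was not tested.

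**Figure D1:**
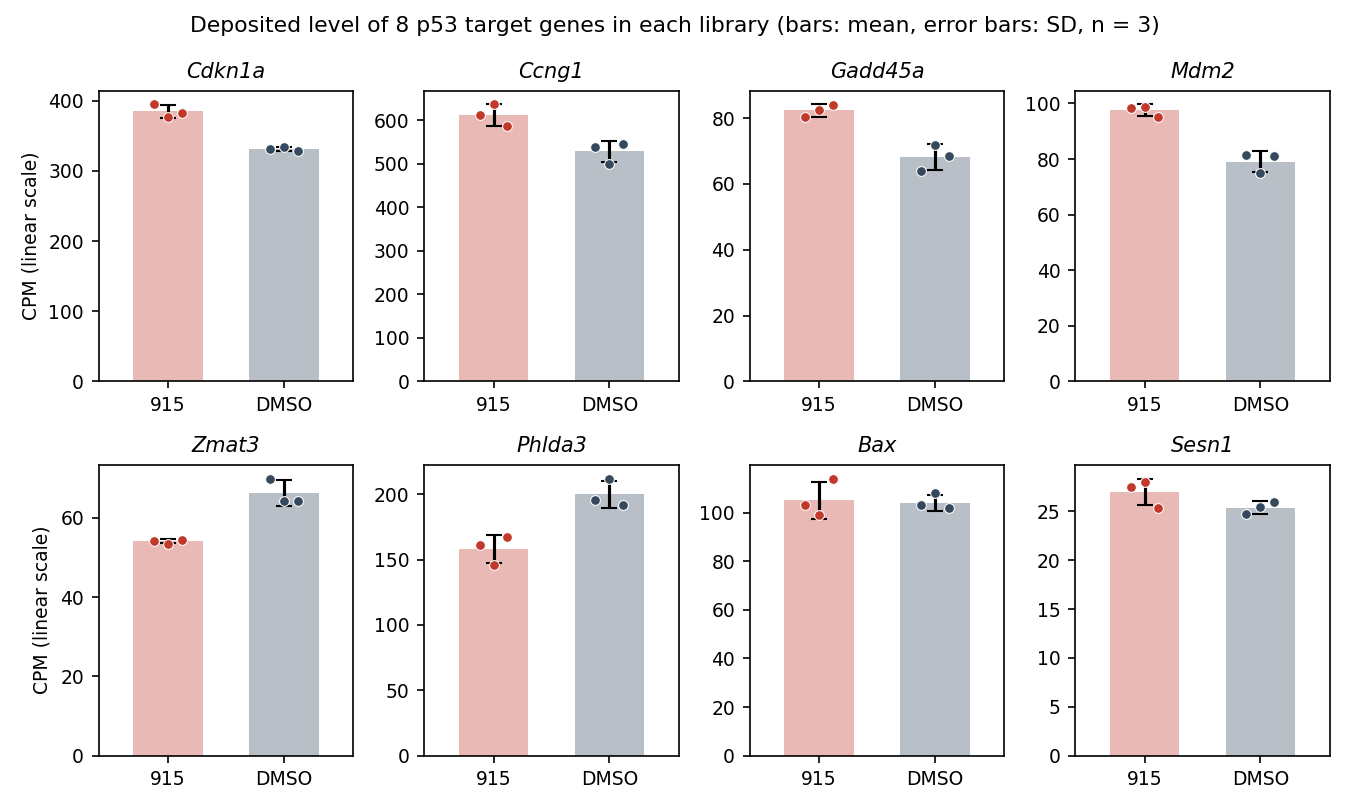
Deposited CPM (vertical axes, linear from 0) of the 8 p53 target genes in each 915 and DMSO library; points are libraries, bars are group means and error bars are SD (n = 3 each). The 915 points lie above all DMSO points for Cdkn1a, Ccng1, Gadd45a and Mdm2, below them for Zmat3 and Phlda3, and overlap them for Bax and Sesn1.

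Of the genes that act on the cell cycle, Cdkn1a (ENSRNOG00000000521) encodes p21, an inhibitor of cyclin-dependent kinases. It was counted at 395, 377 and 382 CPM in 915 libraries 1 to 3, against 331, 334 and 328 CPM in DMSO libraries 1 to 3. The lowest 915 library stood well above the highest DMSO library, and the 915 libraries were more spread (SD 9.55 CPM) than the DMSO libraries (SD 2.89 CPM). The log2 fold change was 0.26 ± 0.0437 (SE; edgeR adjusted p = 1.71e-04), larger than that of 78% of tested genes. Ccng1 (ENSRNOG00000003256), for cyclin G1, which recruits a phosphatase to MDM2, had 613, 637 and 587 CPM with 915 and 539, 501 and 546 CPM with DMSO. Its groups did not overlap, although the spread within each was wider (SD 24.7 CPM with 915 and 24.5 CPM with DMSO), and its log2 fold change was 0.26 ± 0.0485 (SE; edgeR adjusted p = 4.60e-04). Gadd45a (ENSRNOG00000005615), whose product binds the replication clamp PCNA and stress kinases, had 80.4, 82.3 and 84.1 CPM with 915 and 64.0, 71.8 and 68.4 CPM with DMSO. All 915 libraries were higher, with a log2 fold change (± SE) of 0.32 ± 0.0577 (edgeR adjusted p = 3.43e-04).

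The other genes that passed, which act back on p53, on survival signalling or on RNA, did not move together. Mdm2 (ENSRNOG00000006304) had 98.5, 98.9 and 95 CPM with 915, against 81.4, 74.9 and 81.1 CPM with DMSO. The groups were clearly apart, and at 0.35 ± 0.0511 (SE; edgeR adjusted p = 5.90e-05) this was the largest log2 fold change of the 8 genes, above that of 84.3% of tested genes. Phlda3 (ENSRNOG00000009068), whose product competes with the kinase AKT for membrane lipids and so restrains it, went the other way, with 161, 146 and 167 CPM in 915 libraries and 196, 212 and 192 CPM in DMSO libraries. Every 915 library was below every DMSO library, with a log2 fold change (± SE) of −0.29 ± 0.0594 (edgeR adjusted p = 9.71e-04). Zmat3 (ENSRNOG00000010119), for a zinc-finger protein that binds RNA, had 54.2, 53.5 and 54.5 CPM with 915 and 69.9, 64.3 and 64.3 CPM with DMSO. The 915 libraries were nearly equal (SD 0.532 CPM) and all lower, with a log2 fold change (± SE) of −0.24 ± 0.0541 (edgeR adjusted p = 1.88e-03).

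The remaining genes had overlapping groups. Bax (ENSRNOG00000020876), which encodes a protein that perforates the outer mitochondrial membrane during apoptosis, had 103, 99.1 and 114 CPM with 915 and 103, 108 and 102 CPM with DMSO. Both its lowest and its highest library were 915 libraries, and its log2 fold change was 0.06, with a 95% interval from −0.06 to 0.19 (edgeR adjusted p = 0.402). Sesn1 (ENSRNOG00000000302), for sestrin 1, which holds back the growth kinase mTORC1, had 27.5, 28.0 and 25.4 CPM with 915 and 24.7, 25.5 and 26.0 CPM with DMSO. Here 915 libraries 1 and 2 lay above the DMSO range and 915 library 3 within it, and the interval of the log2 fold change reached from −0.01 to 0.28 around 0.13 (edgeR adjusted p = 0.113). Missing the threshold does not show that these genes were unaffected. The interval of Sesn1 includes the 0.26 estimated for Cdkn1a and for Ccng1, and it overlaps the interval of Mdm2 (0.24 to 0.46). The interval of Bax ends below these values.

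**Figure D2:**
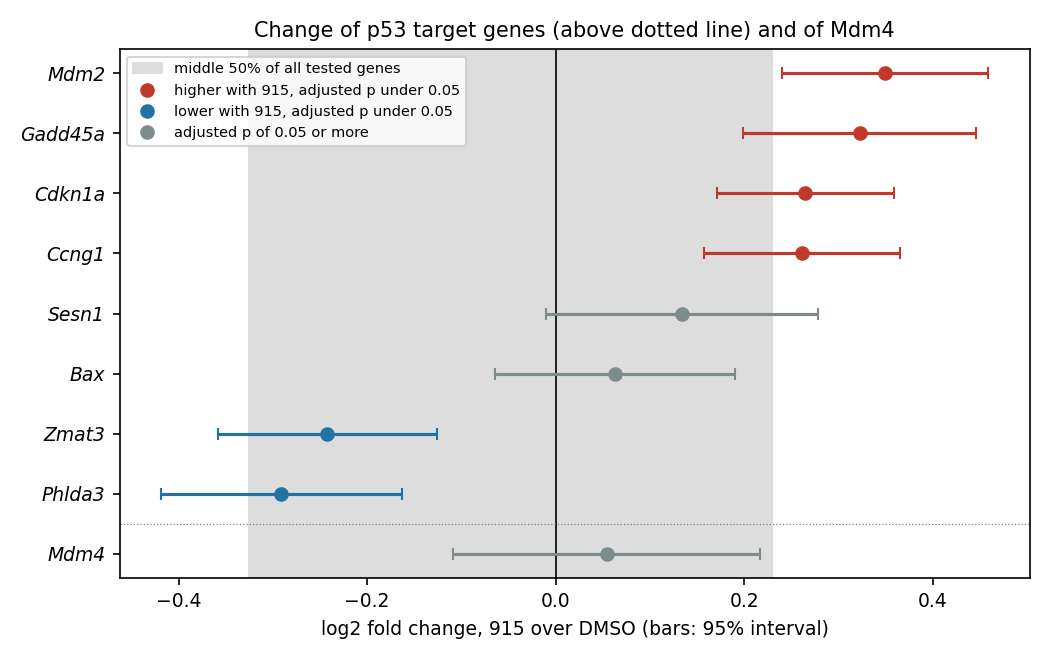
Log2 fold change of 915 over DMSO (horizontal axis; points with 95% intervals from edgeR, 3 libraries per group) for the 8 p53 target genes and, under the dotted line, Mdm4; the grey band spans the middle 50% of all 14253 tested genes, −0.33 to 0.23. Mdm2 lies at 0.35 and Phlda3 at −0.29, and the intervals of Sesn1, Bax and Mdm4 include 0.

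The depth behind these values differed between the genes. The least counted, Sesn1, reached at most 1063 counts per library and the most counted, Ccng1, 23875. At the lowest count of each, counting alone gives a coefficient of variation of 3.3% for Sesn1 and 0.694% for Ccng1. The observed coefficients of variation were 0.983% to 7.25% with 915 and 0.872% to 5.71% with DMSO, beside medians of 4.35% with 915 and 4.31% with DMSO over the 6073 tested genes with a mean of at least 25 CPM. The smallest were those of Zmat3 with 915 and of Cdkn1a with DMSO. That of Zmat3 was below what counting alone gives at its lowest count (2.39%). That of Cdkn1a was near the 0.901% that counting gives at its lowest count, which was in a 915 library. So small a spread therefore says little about these genes. The widest spread in the 915 group was that of Bax, for which library 2 was low and library 3 high, and the same order of the 915 libraries was seen in Phlda3.

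Genes that regulate p53 also moved in both directions, as tested genes in general did. Mdm4, for the MDM2 partner that masks p53's activation domain, had 37.9, 42.2 and 34.5 CPM with 915 and 39.0, 35.2 and 39.8 CPM with DMSO, and its log2 fold change of 0.05 (interval −0.11 to 0.22, edgeR adjusted p = 0.581) changed sign without 915 library 2, to −0.0205. Of 16 tested genes for regulators of p53, 4 were higher (25%, against 24.3% of all tested genes) and 5 lower (31.2%, against 25.5%). In either direction 56.2% were called, against 49.8% of all tested genes, and the median log2 fold change of the regulators was −0.09. Scaled by the authors' library totals alone, 2 were higher and 8 lower, and of all genes called under that scaling 40.9% were higher, against 48.8% with TMM scaling. Kinases that pass on the signal of broken DNA were among the lower ones: Atm had 34.0, 34.9 and 32.2 CPM with 915 and 50.5, 42.4 and 46.9 CPM with DMSO (1.34-fold lower, edgeR adjusted p = 1.53e-04), and Chek2 averaged 5.29 ± 0.233 CPM with 915 and 8.01 ± 0.567 CPM with DMSO (SD; 1.46-fold lower, edgeR adjusted p = 1.17e-03). Hipk2, a kinase that phosphorylates p53, was higher at 177, 187 and 168 CPM with 915, against 131, 133 and 143 CPM with DMSO (1.35-fold, edgeR adjusted p = 1.20e-05). Rchy1, for a further ubiquitin ligase of p53, was 1.21-fold higher (44.2 ± 2.52 CPM with 915 and 37.9 ± 1.09 CPM with DMSO, SD; edgeR adjusted p = 2.32e-03).

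A wider list of 39 known p53 target genes, none of them in the set above, also held genes that moved either way. Of its members 35 matched a gene and 33 passed the filter. Of these, 8 rose (24.2%, against 24.3% of all tested genes), 6 fell (18.2%, against 25.5%) and 19 did not pass. In either direction 42.4% were called, against 49.8% of all tested genes, and the median log2 fold change was 0.00. Gdf15, a secreted stress signal, had the largest increase of the list, at 131, 121 and 126 CPM with 915 and 43.0, 58.4 and 55.0 CPM with DMSO, or 1.32 ± 0.0905 on the log2 scale (SE; edgeR adjusted p = 2.81e-08). Btg2, which slows proliferation, had 85.8, 87.4 and 90.3 CPM with 915, against 48.4, 55.0 and 53.1 CPM with DMSO (1.74-fold higher, edgeR adjusted p = 8.91e-08), and the growth factor gene Tgfa was 1.55-fold higher. Among the genes that fell, Apaf1, the scaffold of the apoptosome, had 22.3, 22.5 and 20.2 CPM with 915 and 35.6, 29.7 and 33.3 CPM with DMSO (1.47-fold lower, edgeR adjusted p = 3.58e-05). Pmaip1, which encodes the BH3-only protein NOXA, had 4.45, 4.22 and 3.81 CPM with 915 and 9.38, 5.54 and 9.29 CPM with DMSO (1.87-fold lower, edgeR adjusted p = 7.50e-04). DMSO library 2 was nearer to the 915 libraries than the other DMSO libraries were, but the groups did not overlap.

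**Figure D3:**
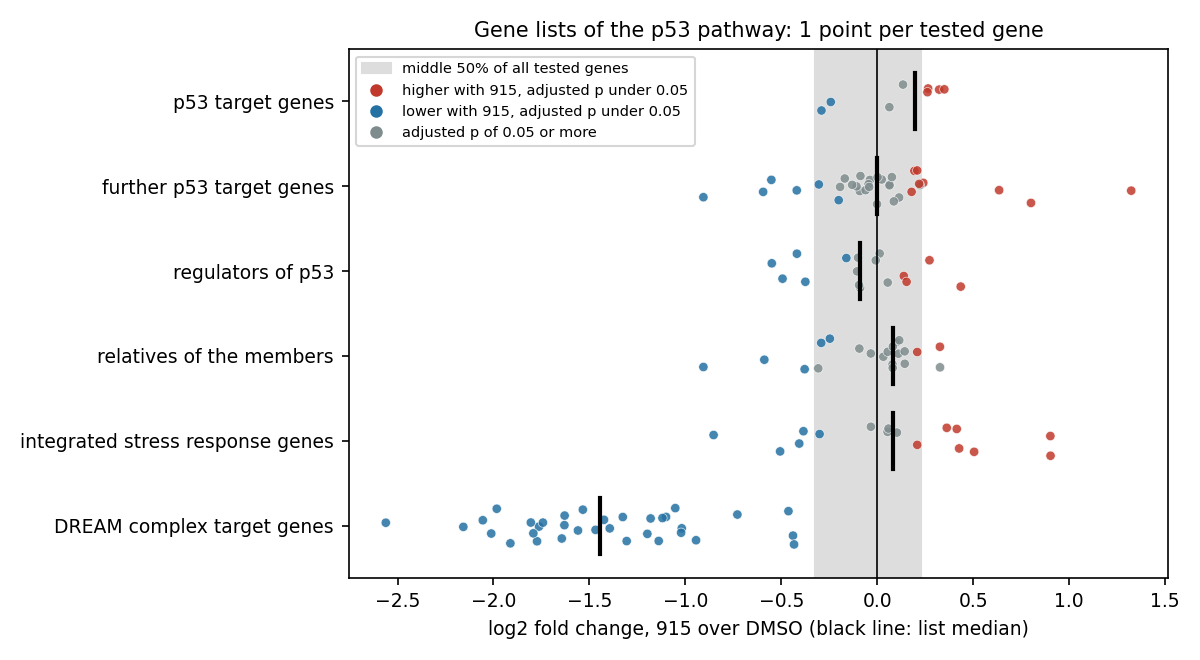
Log2 fold change of 915 over DMSO (horizontal axis) of each tested gene in the 6 lists; each point is 1 gene, black lines are list medians, colours give the edgeR call and the grey band spans the middle 50% of all tested genes. The p53 target genes have a median of 0.20 and the further targets one of 0.00, while the DREAM complex target genes, which act in the cell cycle, all lie below 0, with a median of −1.45.

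Relatives of the 8 genes in the same gene families moved in both directions as well. Ccng1 rose while Ccng2, which is known to respond to FoxO factors, fell to 30.1, 30.2 and 29.2 CPM with 915, against 40.9, 39.4 and 40.1 CPM with DMSO (log2 fold change −0.38 ± 0.0579, SE; edgeR adjusted p = 8.70e-05). In the GADD45 family Gadd45g was higher like Gadd45a (76.2 ± 4.68 CPM with 915 and 62.9 ± 3.68 CPM with DMSO, SD; 1.25-fold, edgeR adjusted p = 6.48e-04), whereas Gadd45b was lower (22.5, 21.1 and 23.9 CPM with 915 and 28.1, 27.6 and 29.9 CPM with DMSO, edgeR adjusted p = 3.51e-03). The other sestrins were split too. Sesn2 had 146, 139 and 148 CPM with 915 and 129, 128 and 130 CPM with DMSO (1.15-fold higher, edgeR adjusted p = 2.19e-03), and Sesn3 had 37.2, 40.6 and 37.4 CPM with 915 and 63.4, 56.8 and 58.8 CPM with DMSO (1.5-fold lower, edgeR adjusted p = 2.10e-06). Cdkn1b, for the related kinase inhibitor p27, overlapped between groups and did not pass (log2 fold change 0.10, interval −0.03 to 0.23, edgeR adjusted p = 0.189). Over all 21 tested relatives 2 were higher (9.52%, against 24.3% of all tested genes), 5 were lower (23.8%, against 25.5%) and 14 did not pass. In either direction 33.3% were called, against 49.8% of all tested genes. Sesn2 and Pmaip1 stand in this list and in that of the further targets, and Mdm4 in this list and in that of the regulators. Sesn2 is also in the list of the integrated stress response, described further on. Gadd45b, Sesn2 and Cdkn1b are outside the naming rule and were chosen here to complete their families after their values were seen.

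**Figure D4:**
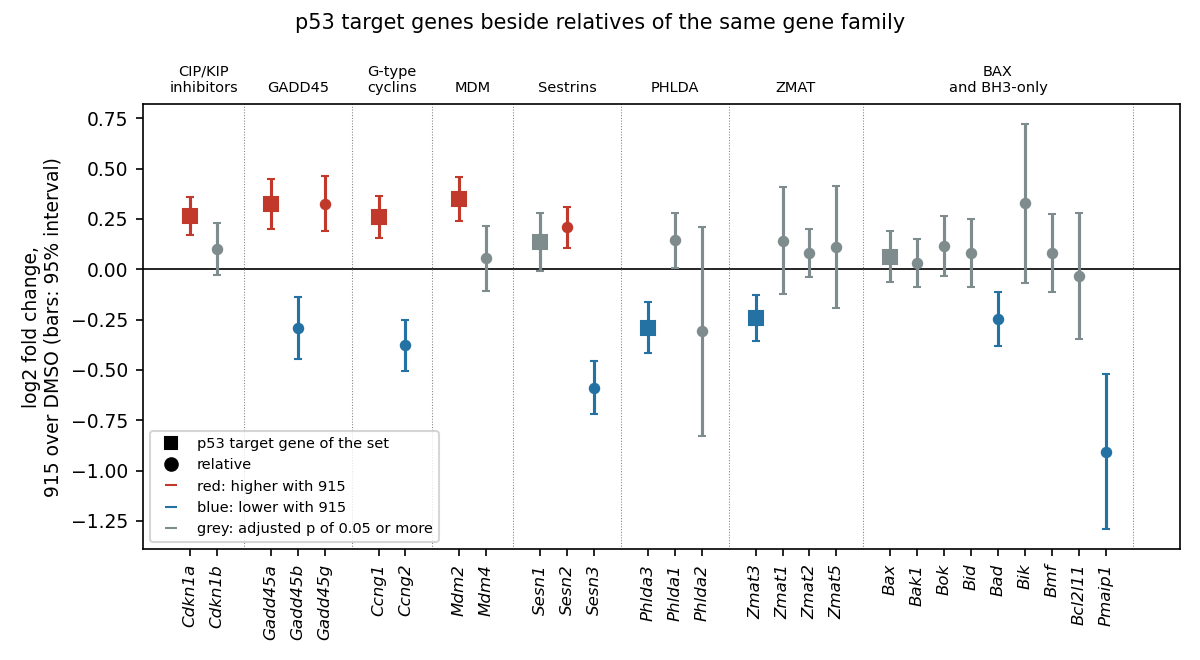
Log2 fold change of 915 over DMSO (vertical axis; 95% intervals from edgeR, 3 libraries per group) for the p53 target genes (squares) and their relatives (circles), by gene family. Ccng1 lies above 0 and Ccng2 below, Sesn2 above and Sesn3 below, and Pmaip1 is the lowest at −0.91.

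Genes that p21 is known to silence through the DREAM complex, a repressor that assembles on cell cycle promoters when cyclin-dependent kinases are inactive, fell as a group. All 34 tested members of that list were lower, against 25.5% of all tested genes, with log2 fold changes between −2.56 and −0.43 and a median of −1.45. Prc1, a spindle midzone gene, had 18.8, 21.4 and 20.9 CPM with 915, against 86.9, 81.3 and 81.3 CPM with DMSO (3.95-fold lower, edgeR adjusted p = 1.94e-11). The mitotic kinesin genes Kif20a and Kif23, the cyclin gene Ccna2 and the kinetochore gene Cenpf were 3.35-fold, 4.16-fold, 4.03-fold and 5.9-fold lower. The p21 protein and the DREAM complex were not measured, and their part in these decreases was not tested. In the same libraries 10 of 13 fibroblast markers were lower and 2 higher, and 4 of 10 endothelial markers were lower and 1 higher. Of the smooth muscle and pericyte markers 5 of 6 were lower, and of the macrophage and leukocyte markers 8 of 13. The sums, and the genes that made up most of some of them, are given above. The part of these cell types in the decrease of the cell cycle genes was not tested.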

How the data were processed

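Whole-number counts per gene and a table of CPM values for 6 libraries were deposited by the authors. Per the submitters' processing notes, the rat build was Rnor_6.0 and the tools were STAR at version 2.5.1a and featureCounts of Subread at version 1.4.6-p5. How strand and multi-mapped reads were handled, and which annotation release was used, is not given in the sources used, so genes that overlap can share reads. Of 22641 rows, 993 repeated an Ensembl identifier with the same counts and were dropped. The deposited CPM equal the counts divided by 1 larger total per library. The sums were 30639244 to 38078137 counts in 915 libraries and 36799845 to 40010826 in DMSO libraries. A count of 0 would allow up to 3 counts, or 0.0698 to 0.0917 CPM, a limit for counting error alone, as reads were not tagged with molecular identifiers.

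Counts were filtered with filterByExpr, scaled by TMM and fitted on group alone with edgeR 4.0.16 in R 4.3.3 (glmQLFit and glmQLFTest, two-sided, Benjamini-Hochberg adjustment over all genes tested, threshold 0.05). The standard error is the size of the log2 fold change divided by the square root of F, and intervals are 95%. The fit was first tested on simulated data, in which few genes changed and by larger folds than the p53 target genes did. That test does not cover changes as small as theirs. In 5 lists of related genes and 5 of cell type markers, 176 of 199 entries matched a gene, 2 of them through a RefSeq table of the assembly GRCr8, which also gave the promoter windows. The members and the lists were chosen with earlier results of these data known. The text names the 8 genes and Mdm4. From each list of related genes it names up to 4 genes with the smallest p, and the largest called increase and decrease. Markers are given by list, and those named beside their sums were chosen after their values were seen. Other genes outside this rule are marked as such. DESeq2 1.42.0 and limma 3.58.1 (on log2 of the deposited CPM + 0.5) were alternatives, as were other scaling, other filters, a replicate block and leaving out each library.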

Additional observations from a re-analysis of the deposited data

How the results depend on the processing

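The 6 called p53 target genes kept their call and direction in all 13 alternatives, and Bax and Sesn1 passed in none (adjusted p of Sesn1 0.113 in edgeR, and 0.0648 to 0.326 over the alternatives). The log2 fold changes ranged from 0.22 to 0.29 for Cdkn1a, 0.30 to 0.37 for Mdm2, 0.27 to 0.38 for Gadd45a, 0.21 to 0.29 for Ccng1, −0.29 to −0.21 for Zmat3 and −0.34 to −0.23 for Phlda3. Scaled by the authors' library totals alone, the median over all genes was −0.06 in place of −0.01. All genes called numbered 7096 in the reported fit and 6074 to 7174 in the alternatives. No pairing by replicate number was seen: deviations of same-numbered libraries correlated at −0.09, −0.27 and −0.16, and 0 of 6 libraries correlated best with their own number. Deviations from a group mean are tied to each other, so these values cannot exclude a shared isolation. With the replicate block, 6193 genes were called, and 5 of the p53 regulators in place of 9. The log2 fold change of Mdm4, which passed in no fit, was −0.0205 without 915 replicate 2 and 0.12 without 915 replicate 3, the range over the fits that left out 1 library. The cause was not tested.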

Other observations

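Genes of the integrated stress response, which is known to raise Gadd45a and Sesn2 through the transcription factor ATF4, were also split. Of 16 tested members 7 were higher and 5 lower, 75% against 49.8% of all tested genes, with a median log2 fold change of 0.08. Atf4 itself averaged 465 ± 21.1 CPM with 915 and 361 ± 7.96 CPM with DMSO (SD, n = 3 each; 1.33-fold, edgeR adjusted p = 4.57e-06). Ddit3, for the stress factor CHOP, averaged 144 ± 8.08 CPM with 915 and 79.8 ± 1.32 CPM with DMSO, and Ppp1r15a, for a subunit that restores translation, 110 ± 10.6 CPM with 915 and 60.7 ± 4.42 CPM with DMSO; both were 1.87-fold higher. Psat1, for an enzyme of serine synthesis that ATF4 is known to raise, was lower, at 15.4 ± 0.767 CPM with 915 and 28.8 ± 0.655 CPM with DMSO (1.81-fold, edgeR adjusted p = 2.46e-07).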
